A study of Mus musculus with 118 samples.

Results

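The genes described here are 8 transcription factors of the lineage of interneurons born in the medial ganglionic eminence of the embryonic forebrain. They are Dlx1, Dlx2, Dlx5, Dlx6, Lhx6, Sox6, Satb1 and Maf, and the Dlx genes are not particular to this eminence. All 8 were chosen by name and were found among the 23998 gene symbols of the count table. They were followed through single SOM+ cells of adult SOM-Cre/Ai9 mice of both sexes. In these mice Cre is expressed from the somatostatin gene and switches on the red marker tdTomato, so that a cell stays labelled even if it made somatostatin only transiently. RNA was read by Patch-seq, where the electrode that records a neuron also aspirates its cytosol for sequencing. The labelled cells, 44 of V1 L4, 39 of S1 L4, 19 of V1 L5 and 16 of S1 L5, came from layer 4 (L4) or layer 5 (L5) of the primary visual (V1) or primary somatosensory (S1) cortex and differed in no treatment. A cell was kept with at least 1500 genes above 0 and a Slc17a7 count not above the sum of Gad1 and Gad2, and cells with an Sst count of 0 were set apart. The rule kept 42, 34, 17 and 16 cells of these groups, called the kept cells below. Left out were 4 cells with under 1500 genes, 1 glutamatergic cell of V1 L5 and 4 cells without an Sst read, all of S1 L4, which are described on their own.

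DLX proteins are homeodomain factors switched on in progenitors of the ganglionic eminences, and cortical GABAergic interneurons of every class pass through a stage that needs them. In the medial eminence the factor NKX2-1 induces Lhx6, and LHX6 in turn is needed for the expression of Sox6 and Satb1 in cells that become Sst or Pvalb interneurons. SOX6 acts in their positioning and maturation, SATB1 in the maturation of the Sst class, and MAF in setting how many Sst and Pvalb cells are made. Several of these genes stay on in the adult cortex.

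The kept cells had 97904 to 3295232 counts, with a median of 1111833 per cell, and a median of 6322 genes above 0. Gad1 was read in every kept cell, Gad2 in all but 2 and Slc32a1 in all but 8, whereas Slc17a7 was read in 22, Vip in 3, Lamp5 in 13, Adarb2 in 3 and Htr3a in 1. Since the rule for keeping cells used Gad1, Gad2, Slc17a7 and Sst, these genes are no independent check of the label. Since no label gives the animal, the cells of 1 area and layer count as 1 sample, and cells were not tested against each other. The date in each label was read as the day of recording, which the labels do not state. There were 9 dates, called days here, with L5 cells on days 3 to 6 only. The days cannot all be different animals, because the study used fewer mice for these cells than there are dates. The spread over days is the only replicate error available.

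The members lie on 5 chromosomes of GRCm38 in the GENCODE M21 annotation, and all are protein-coding. Dlx1 (chr2:71528113-71533981, plus strand) and Dlx2 (chr2:71543408-71546754, minus strand) point towards each other with 9426 bases between them. Dlx6 (chr6:6863334-6868568, plus strand) and Dlx5 (chr6:6877805-6882085, minus strand) are arranged in the same way, 9236 bases apart. Lhx6 is at chr2:36081953-36105408, Sox6 at chr7:115470872-116038796, Satb1 at chr17:51736187-51833290 and Maf at chr8:115682942-115707794, all on the minus strand. The antisense transcript Dlx1as shares 335 exon bases with Dlx1, which is 6.21% of the exon bases of Dlx1, and Dlx6os1 overlaps Dlx6 without sharing an exon base. Maf shares 440 exon bases with the antisense transcript Gm15655, which is not in the count table. The libraries do not mark the strand, so reads from shared bases could not be assigned to one strand.

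RefSeq promoter windows on GRCm38.p6 were matched for 5 members, Dlx1, Dlx2, Lhx6, Sox6 and Satb1, some with several start sites. In the 250 bases before each start, on either strand, 3 cores were searched: TAATTA, bound by homeodomain factors such as DLX and LHX6, TGCTGAC, the core of MAF sites, and ACAAT, bound by SOX factors. TAATTA and TGCTGAC were in none of the members' windows, beside 4.84% and 3.81% of all 32851 windows. ACAAT was in the window of 1 of 3 starts of Lhx6 and of 3 of 6 starts of Sox6, beside 27.7% of all windows. The windows of the third Lhx6 start and of the fifth and sixth Sox6 starts are shown because they hold this core and no annotated exon base, with ACAAT or its reverse complement ATTGT in capitals. They are on the minus strand at chr2:36104061-36104310, chr7:115824711-115824960 and chr7:115801610-115801859, in this order.
Lhx6, start 3: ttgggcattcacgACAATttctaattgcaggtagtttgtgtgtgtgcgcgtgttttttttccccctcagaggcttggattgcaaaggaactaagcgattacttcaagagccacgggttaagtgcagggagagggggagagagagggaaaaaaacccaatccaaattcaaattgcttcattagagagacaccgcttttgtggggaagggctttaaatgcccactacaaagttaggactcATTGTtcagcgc
Sox6, start 5: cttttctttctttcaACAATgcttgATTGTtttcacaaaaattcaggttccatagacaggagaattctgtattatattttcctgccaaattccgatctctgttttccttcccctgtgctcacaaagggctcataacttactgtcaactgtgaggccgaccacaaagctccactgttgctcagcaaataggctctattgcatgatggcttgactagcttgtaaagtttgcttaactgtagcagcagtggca
Sox6, start 6: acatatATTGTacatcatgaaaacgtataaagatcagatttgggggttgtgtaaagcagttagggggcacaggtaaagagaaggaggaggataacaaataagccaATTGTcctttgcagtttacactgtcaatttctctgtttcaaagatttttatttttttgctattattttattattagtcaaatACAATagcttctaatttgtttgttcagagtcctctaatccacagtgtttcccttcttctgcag
The matches are letters only, and no binding was measured here.

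A kept cell had reads of 5.77 ± 0.651 of the 8 members (mean, SD over 9 days). The number ranged from 1 to 8, 15 cells had all 8, and 96 cells had 4 or more. The mean was 5.81 (V1) and 5.97 (S1) in L4, and 5.53 (V1) and 5.50 (S1) in L5. With every cell thinned to 250000 reads it was 5.69 and 5.65 in L4 and 5.60 and 5.33 in L5. The group means differed by less than the spread over days within groups, 0.718 to 1.04. Reads of Nkx2-1, the factor upstream of Lhx6 in the embryo, were found in 0 kept cells, which allows a share of cells with a read of up to 2.75%. This does not limit the share of cells that hold the RNA.

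To rank the members, the deposited RPKM values were used, since they correct for gene length. On the log2(RPKM + 1) scale the mean level over the kept cells was 4.81 for Satb1, 4.39 for Lhx6, 3.61 for Dlx2, 3.37 for Sox6, 3.07 for Dlx1, 3.01 for Maf, 2.36 for Dlx5 and 1.74 for Dlx6. Satb1 was above Lhx6 in 8 of 9 days, but by 0.42 ± 0.95 (SD over days). Every difference between neighbours in this order, 0.06 to 0.77 on this scale, was smaller than its SD over days. The order also differed between groups. Lhx6 (3.90) was below Sox6 (3.92) in V1 L4, and Maf (1.28) was the lowest in S1 L5, below Dlx5 (1.81) and Dlx6 (2.37). All further levels are read counts scaled to the total of the cell (CPM), or means of log2(CPM + 1), and are compared between cells and not between genes.

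The 4 Dlx genes were each read in part of the cells. Dlx2 was read in 84 kept cells (77.1%, 95% Clopper-Pearson interval 68.0 to 84.6%), Dlx1 in 70 (64.2%, 54.5 to 73.2%), Dlx6 in 50 (45.9%, 36.3 to 55.7%) and Dlx5 in 49 (45.0%, 35.4 to 54.8%). These and all later intervals cover counting error only. At least 1 Dlx gene was read in 92.7% of the kept cells (86.0 to 96.8%) and all 4 in 17 cells.

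Levels of the Dlx genes varied widely between cells. Dlx2 ranged from 0 to 554 CPM over the kept cells, with a median of 45.6 over all cells and 68.7 over cells with a read. Dlx1 reached 237 CPM with a median of 17.7, and Dlx5 reached 294 CPM with a median of 0. Dlx6 had a median of 12.96 CPM in the cells with a read. Neighbours on the chromosome were not always read together. Dlx1 and Dlx2 were both read in 58 cells, of 70 with Dlx1 and 84 with Dlx2, and Dlx5 and Dlx6 in 26, of 49 with Dlx5 and 50 with Dlx6. Group means of log2(CPM + 1) were 3.15 to 4.28 for Dlx1, 3.24 to 5.04 for Dlx2, 1.97 to 2.98 for Dlx5 and 1.41 to 2.31 for Dlx6.

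Lhx6, the factor that the medial eminence passes on to its Sst and Pvalb cells, was read in 88 kept cells (80.7%, 72.1 to 87.7%). In L4 it ranged from 0 to 477 CPM in V1 (median 91.6) and to 675 in S1 (median 204). In L5 it ranged from 0 to 395 in V1 (median 158.9) and to 389 in S1 (median 136.5). The ranges overlapped throughout, and each group held cells without a read.

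Satb1, a chromatin organizer, was read in all but 7 kept cells (93.6%, 87.2 to 97.4%), the most of all members. Its median was 215 (V1) and 353 CPM (S1) in L4, and 240.5 (V1) and 452 CPM (S1) in L5, and its highest cell had 1071 CPM, in S1 L4. Lhx6, Sox6 and Satb1 were read together in 78 kept cells (71.6%, 62.1 to 79.8%), and 2 cells had none of them.

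Sox6 was read in 95 kept cells (87.2%, 79.4 to 92.8%) and Maf in 91 (83.5%, 75.2 to 89.9%). Both were read in most L4 cells and in a smaller share of L5 cells. In L4, Sox6 was read in 41 of 42 cells (V1) and 31 of 34 (S1), and in L5 in 11 of 17 and 12 of 16. Maf was read in 39 and 30 of the L4 cells and in 11 and 11 of the L5 cells. Both genes together were read in 38 of 42 V1 L4 cells (90.5%, 77.4 to 97.3%) and 28 of 34 S1 L4 cells (82.4%, 65.5 to 93.2%), beside 7 of 17 V1 L5 cells (41.2%, 18.4 to 67.1%) and 9 of 16 S1 L5 cells (56.2%, 29.9 to 80.2%).

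**Figure D1:**
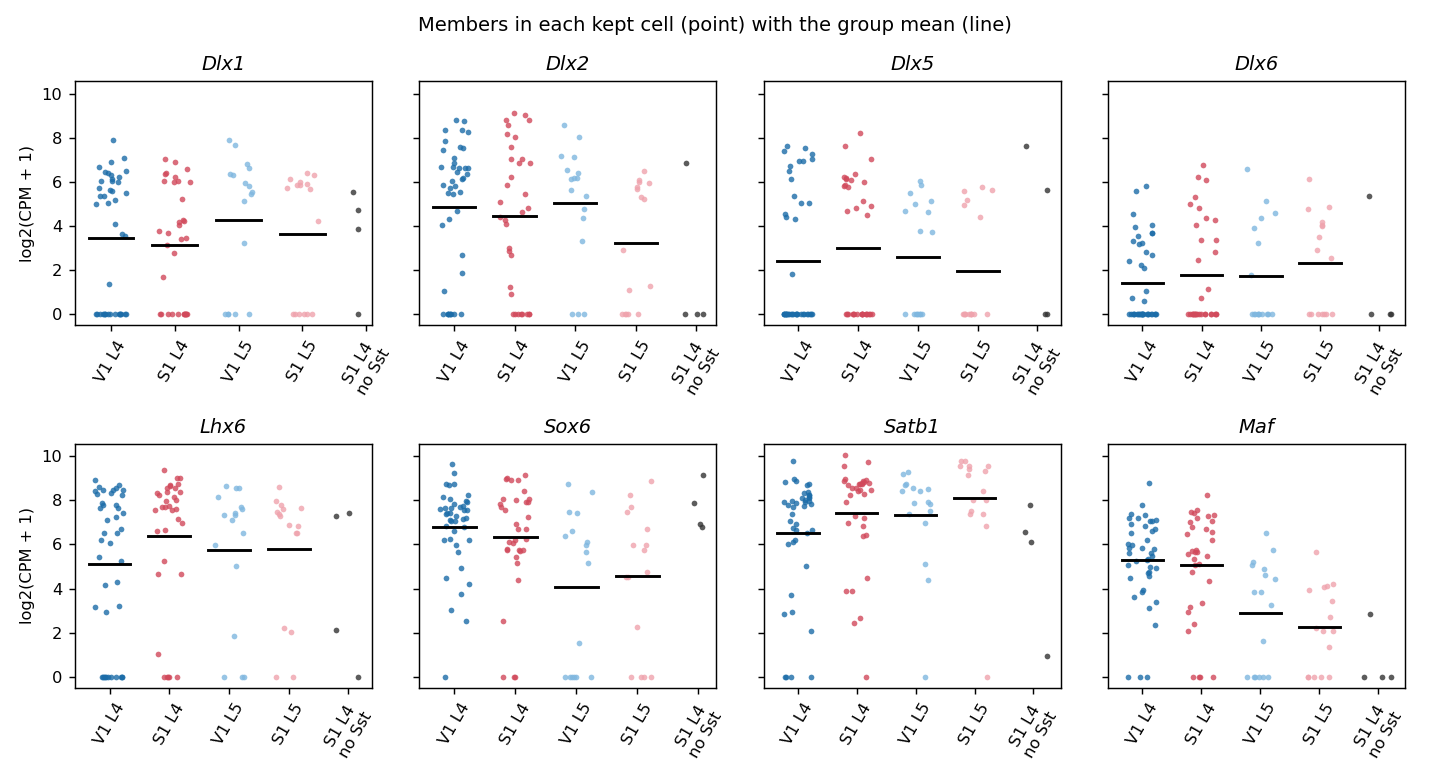
Level of each member, as log2(CPM + 1), in each kept cell (points) of V1 L4 (n = 42), S1 L4 (n = 34), V1 L5 (n = 17) and S1 L5 (n = 16), with the group mean (black line), and in the 4 S1 L4 cells without an Sst read. Sox6 and Maf have few cells at 0 in L4 and group means of 4.09 and 4.55 (Sox6) and 2.89 and 2.24 (Maf) in L5, below those of L4.

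Whether the members differ between the layers was asked within each area. L5 cells were recorded on 4 days, and only L4 cells of these days were used, 7 in V1 and 12 in S1. A difference of at least 1 in mean log2(CPM + 1) was counted, which is a rule of size and no test. In V1, 4 of 8 members were lower in L5 by at least 1 (Sox6, Lhx6, Maf and Dlx5) and none was higher, beside 39.3% of the 4778 genes past the filter on low counts in either direction and 24.4% lower. In S1, 3 of 8 were lower (Maf, Sox6 and Lhx6) and none higher, beside 35% of 5895 genes in either direction and 12.4% lower. Of the 8 members, 5 passed the filter in V1 and 6 in S1, and Maf and Dlx5 were not among those 5. The median difference was -0.98 over the members and -0.19 over all tested genes in V1, and -0.05 and 0.21 in S1.

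Sox6 was lower in L5 in both areas. On the days with L5 cells, Sox6 ranged from 17.6 to 188 CPM in the 7 V1 L4 cells (median 144.9), whereas the 17 V1 L5 cells ranged from 0 to 422 (median 49.4). In S1 its median was 234 CPM in the 12 L4 cells, which ranged from 0 to 488, and 38.99 in the 16 L5 cells, which ranged from 0 to 467. The ranges overlapped. L5 held cells without a read in both areas, and its highest cell was above the highest L4 cell in V1 and below it in S1. L5 minus L4, the means of log2(CPM + 1) differed by -2.55 (V1) and -2.49 (S1). Within recording days it was -3.90 and -3.64 in V1, and -3.04, -2.96 and -0.84 in S1. All 5 differences within days had the same sign, with a mean of -3.77 ± 0.18 (SD, n = 2 days) in V1 and -2.28 ± 1.25 (n = 3) in S1. The V1 days compared had 2 and 3 L4 cells, and days with 1 L4 cell gave no comparison. The 3 V1 L5 cells of day 4 were not low, with a mean of 6.49 beside 7.44 in the L4 cell. On day 6 the V1 L4 cell was at 4.22 and the 5 L5 cells at a mean of 4.16. In S1 on day 6 the L4 cell was at 7.84 and the 3 L5 cells at a mean of 2.26.

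Maf was lower in L5 as well. In V1 its median was 21.1 CPM in the 7 L4 cells, which ranged from 7.56 to 132.3, and 13.2 in the 17 L5 cells, which ranged from 0 to 91.9. In S1 the median was 71.9 in the 12 L4 cells, from 3.22 to 172.8, and 3.45 in the 16 L5 cells, from 0 to 49.0. None of these L4 cells lacked a Maf read, whereas 11 of 17 and 11 of 16 L5 cells had one. The means of log2(CPM + 1) differed by -2.02 (V1) and -3.60 (S1). It was -3.79 and -2.28 within the days of V1, which had 2 and 3 L4 cells. Within those of S1 it was -4.22, -3.68 and -4.76, again with 1 sign in all 5. The mean over days was -3.03 ± 1.06 (SD, n = 2) in V1 and -4.22 ± 0.54 (n = 3) in S1. Days with 1 L4 cell are not in these means. On day 6 the V1 L4 cell was at 3.10 and the 5 L5 cells at a mean of 4.02, the other direction. The V1 L4 cell of day 4 (3.37, beside 2.28 in L5) and the S1 L4 cell of day 6 (7.18, beside 2.96) were higher. The V1 difference was small on other scales, -0.97 with a pseudocount of 10 and -0.64 between the medians over cells.

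Lower by at least 1 in both areas and lower in each of the 5 comparisons within days were 2 of 8 members, Sox6 and Maf, and 1.67% of the 8124 genes past the filter in the cells of both areas, a filter that 7 members passed. This joint rule was set after the values were seen. Dlx5 was also lower in each of the 5 comparisons, with differences of -3.79 and -0.89 in V1 and -0.25, -0.34 and -1.10 in S1, but not by 1 in S1 as a whole. With each cell thinned to 250000 reads the differences were -1.82 (V1) and -2.68 (S1) for Sox6, and -2.55 and -3.42 for Maf. Against the L4 cells of all days they were -2.71 and -1.77 for Sox6, and -2.41 and -2.81 for Maf.

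**Figure D2:**
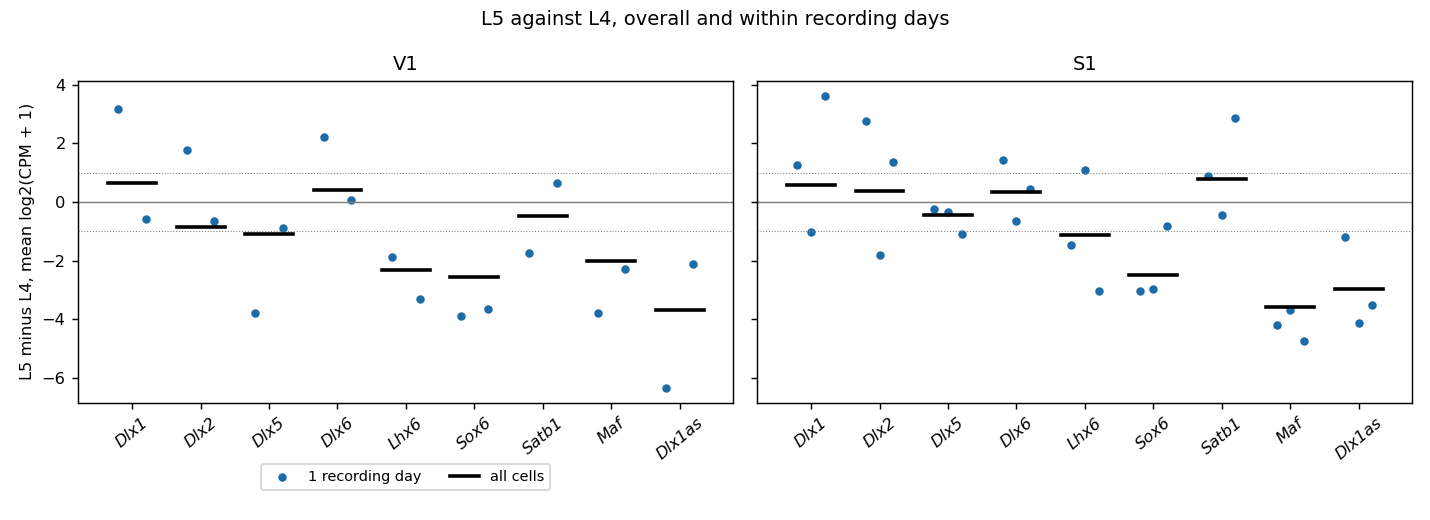
Difference of mean log2(CPM + 1) between L5 and L4 in V1 (left) and S1 (right) for the 8 members and Dlx1as, over all cells of the days with L5 cells (black line) and within each day with at least 2 cells of each layer (points), with dotted lines at 1 and -1. For Sox6, Maf and Dlx1as all 5 points are below 0, from -0.84 to -6.35, and those of Dlx5 are too, from -0.25 to -3.79, whereas the points of Dlx1, Dlx2 and Satb1 lie on both sides of 0.

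Sox6 is also known from oligodendrocyte precursors and Maf from microglia, so markers of these cells were read in the same libraries. The summed precursor markers (Pdgfra, Cspg4, Olig1, Olig2 and Sox10) were at 0 in 6 of 7 L4 and 14 of 17 L5 cells of V1, and in 8 of 12 L4 and 13 of 16 L5 cells of S1, with a highest value of 192 CPM. Of the kept cells, Pdgfra was read in 2, Olig2 in 1, Cspg4 in 4, Sox10 in 5 and Olig1 in 16. The 6 microglia markers (Cx3cr1, C1qa, C1qb, Csf1r, P2ry12 and Tmem119) had a lower median sum in L5, while few differed singly. The median sum was 165.5 CPM in V1 L4 and 10.9 in V1 L5, and 141.1 in S1 L4 and 15.3 in S1 L5, with ranges from 0 to 2764 in L5 and from 0 to 1211 in L4. By single markers, 1 was higher and 1 lower by at least 1 in L5 of V1, and 2 were lower in S1. Of the 6, 1 passed the filter on low counts in V1 and 0 in S1. Pooled over all kept cells, with the L4 cells of all days, the sum was 421.8 CPM in V1 L5 and 198.1 in V1 L4, the other direction. In S1 the pooled sum was 104.9 CPM in L5 and 149.3 in L4, the direction of the medians. Of 5 astrocyte markers, 4 were lower by at least 1 in L5 of V1, with a median difference of -1.13 on the log2(CPM + 1) scale, and 1 in S1, with a median of 0.42. Only 1 of the 5 passed the filter in each area. Lower by at least 1 were 24.4% (V1) and 12.4% (S1) of all tested genes. Across the kept cells, with the mean of each area and layer taken off, the correlation of Maf with the summed microglia markers was -0.03 and that of Sox6 with the summed precursor markers -0.01. With the summed astrocyte markers it was -0.02 for Sox6 and -0.16 for Maf. Their part in the layer difference was not tested.

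Lhx6 also had a lower mean in L5, but its differences depended on the days. In V1 the difference was -2.31, and -1.87 and -3.31 within days. All 7 V1 L4 cells of these days had Lhx6, from 91.4 to 421 CPM with a median of 354. With the L4 cells of all days the sign turned, to 0.65 on the log2(CPM + 1) scale. In S1 the difference was -1.13, and -1.46, 1.10 and -3.04 within days. Dlx5, with a difference of -1.11 in V1, also turned with the L4 cells of all days, to 0.21.

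The other Dlx genes and Satb1 did not pass 1 in either area. Satb1 differed by -0.49 in V1 and 0.80 in S1 on the log2(CPM + 1) scale, Dlx1 by 0.66 and 0.58, Dlx2 by -0.86 and 0.36, and Dlx6 by 0.42 and 0.35, all with an SD over days of 1.03 or more.

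The antisense transcript of Dlx1 did not follow Dlx1 between layers. Dlx1as, a non-coding RNA made from the opposite strand of the locus, was read in 81 kept cells, beside 70 with Dlx1. Its difference, L5 minus L4, was -3.71 in V1 and -2.97 in S1 on the log2(CPM + 1) scale, and -1.21 to -6.35 in the 5 comparisons within days. Dlx1 itself differed by 0.66 and 0.58, but with both signs within days. It was 3.18 and -0.60 within the days of V1, and 1.28, -1.04 and 3.63 within those of S1. Dlx6os1, the long transcript antisense to Dlx6, was read in 53 cells and differed by -2.25 in V1 and 0.88 in S1. Across cells the correlation of Dlx1 with Dlx1as was 0.43, or 0.21 with the number of detected genes taken off, and 66 cells had both.

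**Figure D3:**
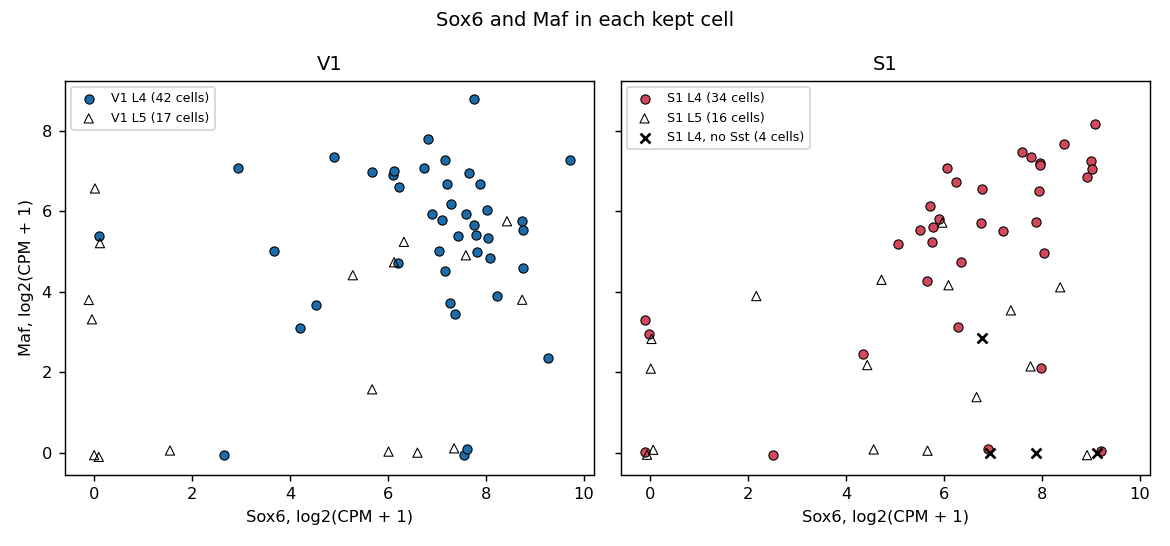
Sox6 (horizontal axis) and Maf (vertical axis), both as log2(CPM + 1), in each kept cell of V1 (left) and S1 (right), with L4 cells as filled circles, L5 cells as open triangles and the 4 S1 L4 cells without an Sst read as crosses (points of kept cells shifted by up to 0.12 to separate them). Most L4 cells lie in the upper right, and L5 cells spread to both axes. The crosses have Sox6 at 6.78 or more, with Maf at 2.85 in 1 of them and at 0 in the others.

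The areas, S1 against V1, were compared within each layer. In L4, 1 of 8 members was past 1 on the log2(CPM + 1) scale, Lhx6, beside 15.8% of 9201 genes, and 7 members passed the filter. The share of members was near that of all genes, and by medians over cells or by the mean of differences within days the count was 4. Lhx6 was higher in S1 by 1.27, with group means of 6.38 and 5.11. Within the 5 days that gave 2 or more cells per area the difference was 4.00, -0.90, -0.76, 2.08 and -1.67, a mean of 0.55 ± 2.40 (SD). The sign changed between days, with S1 higher in 2 of the 5. Those were days 2 and 7, with 4 S1 and 11 V1 cells and with 9 and 12. Each of the other days had only 2 cells of 1 area. Without day 2 it was 0.52 and without day 7 it was 0.97.

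Satb1 was higher in S1 L4 by 0.90 on the log2(CPM + 1) scale, with 2 of 5 days in that direction and a mean over days of -0.30. Sox6 differed by -0.47, Maf by -0.24, Dlx1 by -0.32, Dlx2 by -0.40, Dlx5 by 0.58 and Dlx6 by 0.38, and the SD over days was 1.81 or more for each of these. Averaged over days, differences were past 1 for Sox6 (-1.16), Dlx2 (-1.87), Dlx6 (1.26) and Dlx5 (-1.09), the last with the opposite sign. Differences of this size between the areas were not detectable against the spread between days. The median over the members was 0.07, and 0.01 over all tested genes.

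In L5, 1 of 8 members was past 1, Dlx2, beside 33.6% of 6402 genes, with 5 members past the filter. The count was 4 by medians over cells and 2 by the mean of differences within days. Dlx2 ranged from 0 to 382 CPM in the 17 V1 cells (median 69.4), whereas the 16 S1 cells ranged from 0 to 90.0 (median 21.6). The difference, S1 minus V1, was -1.80 on the log2(CPM + 1) scale, and -1.82, -3.37 and -3.43 within days 3, 4 and 5, but 0.25 on day 6. The mean of the 4 days was -2.09 ± 1.73 (SD). Sox6 and Maf, the members that were lower in L5, differed between the areas of L5 by 0.46 and -0.65 on this scale, with an SD over days of 2.23 and 0.90.

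**Figure D4:**
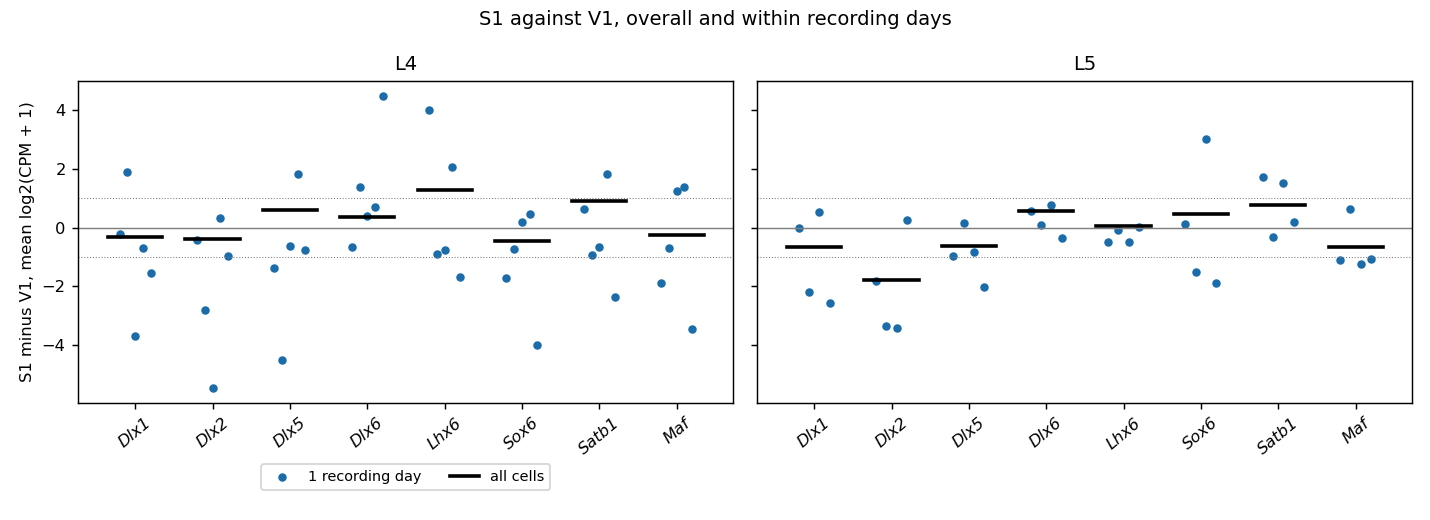
Difference of mean log2(CPM + 1) between S1 and V1 in L4 (left) and L5 (right) for the 8 members, over all kept cells (black line) and within single recording days that gave 2 or more cells per area (points, 5 days in L4 and 4 in L5), with dotted lines at 1 and -1. In L4 the points of every member lie on both sides of 0, including those of Lhx6, which range from -1.67 to 4.00.

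How the members went together from cell to cell was described by Pearson correlations of log2(CPM + 1) over the kept cells, after the mean of each area and layer was taken off. Cells share recording days, slices and depth, so the values are given as a description. Over the 28 pairs the median r was 0.14, from -0.08 to 0.43, and 25 were above 0. The highest were Dlx1 with Lhx6 (0.43), Dlx2 with Dlx5 (0.38), Lhx6 with Satb1 (0.37), Dlx5 with Satb1 (0.33) and Dlx1 with Satb1 (0.27). The members had a median r of 0.08 with the 9985 other genes past the filter.

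These values moved with the number of genes detected in a cell. The log10 of that number had r = 0.58 with Lhx6, 0.52 with Dlx1 and 0.44 with Satb1, but 0.13 with Sox6 and 0.15 with Maf, beside a median of 0.25 over all tested genes. With it taken off as well, the median over the 28 pairs was 0.05 and that with other genes 0.00. Dlx1 with Lhx6 then had r = 0.18 and Lhx6 with Satb1 0.15. Dlx2 with Dlx5 (0.32), Dlx5 with Satb1 (0.24) and Sox6 with Maf (0.23, from 0.24 before) were the highest. Within L4 cells alone Sox6 with Maf had r = 0.32 and within L5 cells 0.13.

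Correlations of the members with the RNA of Sst, the gene that labelled the cells, were of either sign. Sst had r between -0.19 (Satb1) and 0.18 (Dlx6) with the 8 members. In size these reach past the median of 0.14 between members. Cells without an Sst read are not among the kept cells, and the number of detected genes was not taken off here. Gad1, the GABA-synthesizing enzyme, had its highest r with Dlx1 (0.38).

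**Figure D5:**
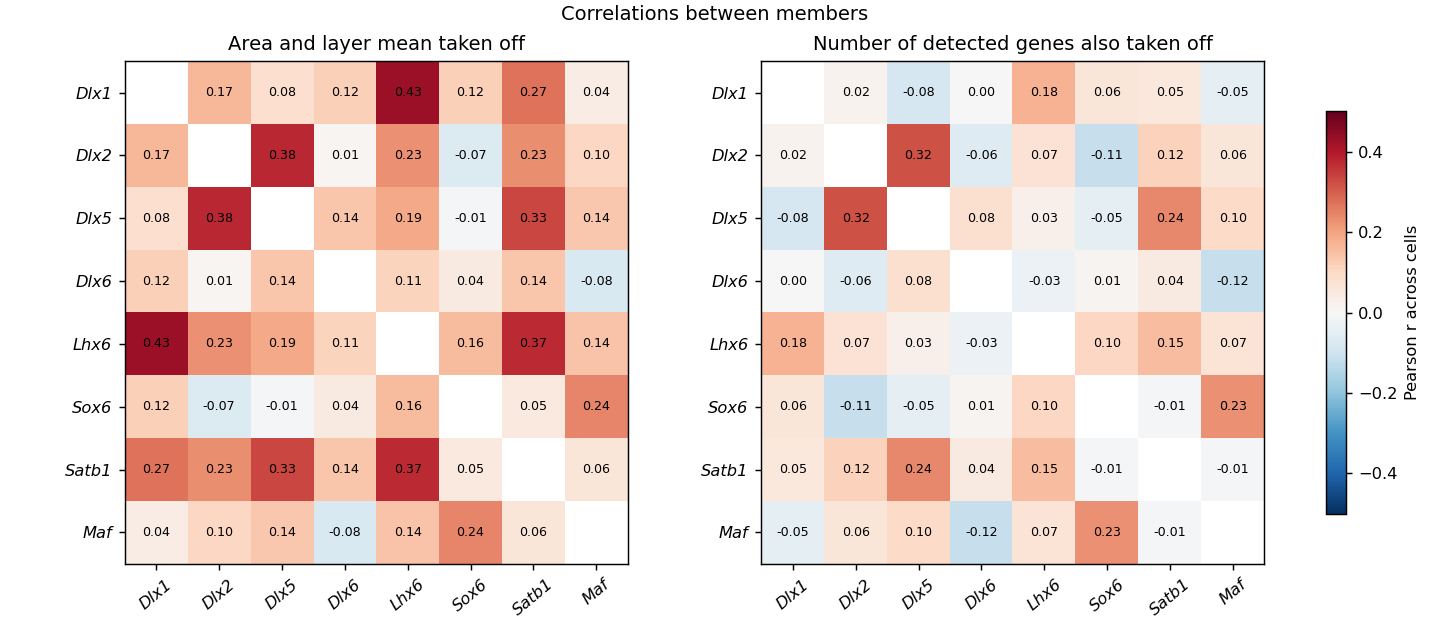
Pearson correlation of log2(CPM + 1) for each pair of members across the kept cells, after the mean of each area and layer was taken off (left) and with the number of detected genes also taken off (right), on a colour scale from -0.5 (blue) to 0.5 (red). The values involving Lhx6 and Dlx1 are paler on the right, whereas Dlx2 with Dlx5 and Sox6 with Maf stay at 0.32 and 0.23.

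For each member the 3 other genes with the highest correlation over the kept cells were noted. They were Gria3 (r = 0.50), Cacng3 (0.46) and Pitpnc1 (0.41) for Sox6, the first an AMPA receptor subunit and the second a protein that travels with such receptors. For Maf the first 2 were Hnrnpm (0.39) and Stx5a (0.39). For Lhx6 they were Paip2 (0.58), Uqcrc2 (0.57) and Dlat (0.53), for Satb1 Ccdc184 (0.51), Fto (0.49) and Nicn1 (0.49), and for Dlx1 Cend1 (0.56), Ubl7 (0.54) and Prmt1 (0.54). Each of the 9 genes of Lhx6, Satb1 and Dlx1 had r between 0.44 and 0.66 with the number of detected genes. For Dlx2 they were Nudt4 (0.51), Crkl (0.45) and Gemin7 (0.43), for Dlx5 Cyb561d2 (0.50), Bambi (0.43) and Nudcd3 (0.42), and for Dlx6 Cadm4 (0.42), Klhdc10 (0.39) and Cadps (0.39). With the number of detected genes taken off, Gria3 with Sox6 (0.49) and Nudt4 with Dlx2 (0.49) were the highest of the 24. All 24 were picked as extremes over the genes past the filter, so high values are in part a result of the picking. How high unrelated genes would reach was not tested.

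The 4 S1 L4 cells without an Sst read came from days 2, 3, 4 and 5. They had 307046 to 2889474 counts, and Gad1 and Pvalb were read in each. Pvalb was also read in 18 of the 34 kept S1 L4 cells. Sox6 was at 233, 121.1, 109.02 and 560 CPM in these cells, all above the median of 101.7 CPM of the 34 kept S1 L4 cells. Satb1 was at 0.898, 221, 95.2 and 68.4 CPM, all below the median of 353, and Lhx6 at 158.05, 3.34, 0 and 172.6 CPM, all below the median of 204. The kept S1 L4 cells ranged from 0 to 561 CPM for Sox6, to 1071 for Satb1 and to 675 for Lhx6. All these values lie within those ranges.

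Maf was low or not read in them. It was at 0 in 3 of the 4 cells and at 6.23 CPM in the cell of day 4. Of the 34 kept cells 30 had Maf, with a median of 50.1 CPM and a range over all 34 from 0 to 303. At their depth, 0 reads are compatible with levels up to 2.69 (day 2), 2.51 (day 3) and 9.77 CPM (day 5) in the library. These bounds cover counting error only and do not limit the Maf RNA that the cell held. Dlx1 was read in 3 of the 4, at up to 46.0 CPM, Dlx5 in 2, and Dlx2 and Dlx6 in 1 each. The difference in mean log2(CPM + 1) from the kept S1 L4 cells was 1.36 for Sox6, -4.34 for Maf, -2.16 for Lhx6 and -2.05 for Satb1. With 4 cells these are values of these cells only.

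Other genes of the lineage and of the mature cells were read from lists, in the same 4 comparisons. Past 1 in either direction were 15.8% of all tested genes between the areas of L4 and 33.6% between those of L5. Between the layers the share was 39.3% in V1 and 35% in S1. Of 17 interneuron lineage factors besides the members, 2 were higher and 1 lower by at least 1 in S1 L4 than in V1 L4, and 5 and 1 in L5. In L5 against L4, 1 was higher and 4 lower in V1, and 2 higher and none lower in S1. Their median difference was -0.02 (L4 areas) or 0.00 (the other 3 comparisons) on the log2(CPM + 1) scale, and 4 to 7 of the 17 passed the filter. Of 15 genes that mature interneurons of the medial eminence use, such as Sst, Npy and Kcnc1, 3 were higher and 2 lower between the areas of L4. The counts were 4 and 1 between the areas of L5, 2 and 4 between the layers of V1, and 4 and 3 between those of S1. Of these 15, 8 to 10 passed the filter. Of 8 factors of excitatory neurons, such as Neurod6 and Tbr1, none passed the filter, and 1 was past 1, lower in L5 of V1. Their summed level had a median of 0 CPM in all 4 groups.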

How the data were processed

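RNA was read from single SOM+ cells with a Smart-seq2 protocol without molecular identifiers, in 75-base single reads that do not mark the strand. The authors aligned reads to mm10 (STAR 2.4.2a and bcl2fastq 2.20 are in the submitters' notes) and deposited raw read counts per gene. They also deposited RPKM values made with rpkmforgenes and RefSeq models. A table of the area and layer of each cell was not used, since the labels give both.

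Entries sharing a symbol were summed. Counts were scaled to CPM, with 1 added before log2. The background holds genes with 32 or more reads in 10 or more of the cells compared, whereas members and lists were counted whether or not they passed. Differences are of means over cells, with the SD over recording days that held at least 2 cells of each group. Genes were named by rule: the 8 members, overlapping transcripts, and the 3 most correlated genes of each. Some genes that the rule or the lists include are not reported here. The members and lists were chosen with earlier results of these data known. No test was run over cells, because each area and layer is 1 sample. Shares have 95% Clopper-Pearson intervals, and a count of 0 allows 3 counts. Thinning drew 250000 reads (seed 1), which 106 cells allowed. The functions were tested on simulated data. Alternatives changed scaling, pseudocount, filters, summary, days and correlation. Scaling factors (TMM, an alternative only) came from edgeR 4.0.16 in R 4.3.3, all else from pandas 2.3.3 and NumPy 2.4.6 with SciPy 1.17.1 for intervals, under Python 3.11.15, and plots from matplotlib 3.10.9.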

Additional observations from a re-analysis of the deposited data

Results flagged for a closer look

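Among the 4 cells without an Sst read, 3 of the 8 members were read in 1 cell only and were flagged by a rule on gaps between values. Dlx2 was at 114.9 CPM in the cell of day 2 and at 0 in the others, Dlx6 at 39.5 CPM in the cell of day 4 and at 0 in the others, and Maf at 6.23 CPM in the cell of day 4 and at 0 in the others. With the other cells all at 0, the gap is the whole range, so the rule flags any such gene. The flag therefore says nothing on how unusual these values are.

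Reads of the members were also found in cells that were left out. The glutamatergic cell of V1 L5 (585 counts of Slc17a7, 0 of Gad1) had 21 counts of Satb1 and 6 of Maf, but 0 of Lhx6 and of all 4 Dlx genes, with 3 of Sox6. A V1 L4 cell with 745 detected genes had 79 counts of Satb1 and 0 of the other 7 members.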

How the results depend on the processing

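The number of members past 1 on the log2(CPM + 1) scale changed with the processing. For S1 against V1 in L4, 1 in the report, it was 0 with a pseudocount of 10 or a threshold of 2. It was 4 by medians over cells or by the mean of differences within days, and 2 with a minimum of 3000 detected genes. In days 1 to 6 alone and in days 7 to 9 alone, a split by date made here that no label names, it was also 2. Leaving out each recording day in turn gave 0 to 3. For S1 against V1 in L5, also 1, it was 4 by medians, 0 with a threshold of 2, 2 with 3000 detected genes or within days, and 1 to 4 without each day. For L5 against L4 in V1, 4 in the report, it was 2 with a pseudocount of 10 or with L4 cells of all days, and 4 to 6 without each day. With L4 cells of all days, Lhx6 turned to 0.65 and Dlx5 to 0.21. For L5 against L4 in S1, 3 in the report, it was 6 by medians, 5 within days, and 2 to 5 without each day. Without the gene filter the background share past 1 was 6.30%, 13.5%, 18.2% and 15.1% in the order of these comparisons. Sox6 was lower in L5 in all 12 alternatives in V1 (-3.77 to -1.35) and all 12 in S1 (-3.23 to -1.76). Maf was lower in all 12 as well, at -3.03 to -0.64 in V1, where 10 were past 1, and -4.22 to -2.17 in S1. The mean number of members detected was 5.61 to 5.86 without each day. The median correlation was 0.11 to 0.15 without each day and 0.0478 with the number of detected genes taken off, an alternative chosen after seeing the data. The causes of these changes were not tested. No paired analysis was possible because the labels give no replicate numbers that link cells, and differences within days, given above, are the nearest to a blocked comparison. Of the rarely read members, Dlx6 was read in fewer cells after the thinning described above, in 36.8% beside 45.9% of all kept cells. Dlx5 changed little, with 43.4% after thinning beside 45.0%. How far more reads would raise these shares was not tested. A cell without a read of Dlx5 or Dlx6 may still hold the RNA.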

Other observations

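Npas1, a factor of interneuron precursors and of some mature interneurons, went the opposite way to Sox6 and Maf between the layers. It was higher in L5 by 3.71 on the log2(CPM + 1) scale in V1 and by 2.06 in S1, in the cells of the days with L5 recordings. It was read in 14 of 17 (V1) and 16 of 16 (S1) L5 cells, beside 25 of 42 and 19 of 34 L4 cells of all days. It was picked from the lineage list after the values were seen.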
